A study of Rattus norvegicus with 12 samples.

Results

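The 41 genes described here code for the integrins and the proteins of focal adhesions, the sites where a cell holds on to its matrix. They were taken by name from a table of 21071 genes measured in cells of the rat nucleus pulposus, the soft centre of the intervertebral disc. They comprise 12 alpha and 7 beta integrin subunits, 5 activators and actin links, 4 members of the integrin-linked kinase (ILK) complex, 5 kinases and scaffolds, 3 tensins and 5 zyxin, ENA/VASP and LIM proteins. All 41 names stood in the table with a single row each. Itgb7, with 32 counts over all libraries, had too few for a test, which left 40 genes.

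RNA-seq counts came from 12 libraries in 4 groups of 3. The cells had been given erastin with miR-Exo, erastin with NPPC-Exo, miR-Exo alone or NPPC-Exo alone. NPPC-Exo are exosomes, small vesicles shed by nucleus pulposus progenitor cells, and miR-Exo are such exosomes overexpressing the microRNA miR-221-3p. Erastin blocks cystine import and sets off ferroptosis, a death by iron-dependent lipid peroxidation. Per the labels it was used between 0.1 and 5 µM for 48 h, with no dose given for a single library, and the exosome dose of 50 µg/mL is stated for NPPC-Exo. Every group received exosomes. Whether a group's libraries are separate cultures is not stated, and p-values below measure only the spread between libraries, which may be technical. All cells were grown with serum, per the labels.

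Integrins are pairs of an alpha and a beta subunit that cross the membrane, and the pair decides which matrix protein is bound. Alpha subunits Itga1, Itga2, Itga10 and Itga11 pair with Itgb1 to bind collagens, Itga3, Itga6 and Itga7 bind laminins, and Itga5, Itga8 and Itgav recognise the RGD motif of fibronectin, nephronectin and vitronectin. Talins and kindlins bind the beta tail and switch the integrin on, vinculin ties talin to actin, and paxillin, FAK and p130Cas relay the signal. In the disc these receptors hold nucleus pulposus cells in a matrix rich in aggrecan, collagen and laminin.

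The mature microRNA that sets miR-Exo apart is shown first, with its seed (bases 2 to 8, the stretch that pairs with targets) in capitals; the sequence is RefSeq's for build GRCr8, chrX:6023246-6023268, plus strand.
rno-miR-221-3p: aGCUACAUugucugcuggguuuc
The row of its gene, Mir221, averaged 212 ± 2.67 scaled FPKM with erastin and miR-Exo and 243 ± 10.5 with miR-Exo alone. With NPPC-Exo it averaged 3.02 ± 0.438 scaled FPKM in erastin-treated cells and 2.62 ± 0.0402 in cells without erastin (SD, n = 3 in each group). Reads of this row were therefore high in the libraries labelled miR-Exo, although a long-RNA library does not measure the mature form. Scaled FPKM is the deposited FPKM divided by the library's TMM factor, a level per kilobase on the scale of the test.

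Library totals ran from 54616827 to 68865720 counts. TMM factors, which correct for libraries where a few genes take many reads, were 0.877 to 1.15 and lay apart by group. With library size alone the median change of all genes moved to 0.30 for erastin under NPPC-Exo and 0.33 under miR-Exo on the log2 scale, against 0.02 and 0.03 with TMM. For miR-Exo against NPPC-Exo it moved to 0.11 with erastin, against 0.01 with TMM. The share of called genes that were higher moved with it, to 77.7% from 49.3% for erastin under NPPC-Exo, 76.4% from 50.4% under miR-Exo, 68.6% from 49.7% for miR-Exo with erastin and 68.7% from 38.9% without. Small changes below are therefore relative to the median gene, and a direction that turns with library size alone is named where the change was called with either scaling.

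The label was borne out in part by markers: Acan averaged 882 ± 31.3 and Col2a1 216 ± 65.3 scaled FPKM with NPPC-Exo alone, while Krt18 and Chad stayed under 1 in every library. The summed level of the 13 nucleus pulposus markers in the table was 301 to 313 with erastin and miR-Exo, 369 to 396 with erastin and NPPC-Exo, 1299.8 to 1514 with miR-Exo alone and 1304 to 1479.9 with NPPC-Exo alone. Markers of smooth muscle and pericytes, all 6 of 6 reaching 1 scaled FPKM, summed to 59.5 to 61.8 with erastin and miR-Exo, 69.4 to 71.3 with erastin and NPPC-Exo, 282 to 301 with miR-Exo alone and 304 to 308 with NPPC-Exo alone. Markers of annulus fibroblasts and tendon, of which 6 of 7 reached 1, summed to 1311 to 1707 with erastin and miR-Exo, 2332 to 2837 with erastin and NPPC-Exo, 4894 to 6338 with miR-Exo alone and 4622 to 6043 with NPPC-Exo alone. These summed levels were lower with erastin alongside the adhesion genes, and their part in the results was not tested. With NPPC-Exo alone, Acan at 882 and Col1a1 at 4469 scaled FPKM made up most of the nucleus pulposus and annulus sums. Single markers went the other way, among them Cd24 and Pdgfra, whose means were higher with erastin under both exosome types. Of the macrophage and leukocyte list 2 of 6 genes reached 1, Cd14 and Cd68, and its sum was 13.0 to 16.7 with erastin and miR-Exo, 7.16 to 10.0 with erastin and NPPC-Exo, 5.13 to 6.07 with miR-Exo alone and 4.01 to 5.15 with NPPC-Exo alone. No gene of the endothelial, skeletal muscle, epithelial or erythroid lists reached 1 scaled FPKM. In bulk RNA, fewer cells of a type and less RNA per cell cannot be told apart.

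The nucleus pulposus cells carried a broad but uneven set of integrin transcripts. Among alpha subunits with NPPC-Exo alone, the collagen receptor subunit Itga11 stood highest at 279 ± 3.46 scaled FPKM, followed by Itga5 at 161 ± 5.62 and Itgav at 118 ± 2.47. Itga1 and Itga8 came next, at 76.2 ± 6.65 and 70.7 ± 1.43 scaled FPKM, whose library values overlapped. Among beta subunits, Itgb1, the common partner of most alpha subunits, reached 1284 ± 42.1 scaled FPKM, and Itgb5 147 ± 5.68. A further 6 genes stayed under 1 scaled FPKM in every library: Itga9, Itga10, Itgb4, Itgb6, Itgb7 and Fermt1.

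**Figure D1:**
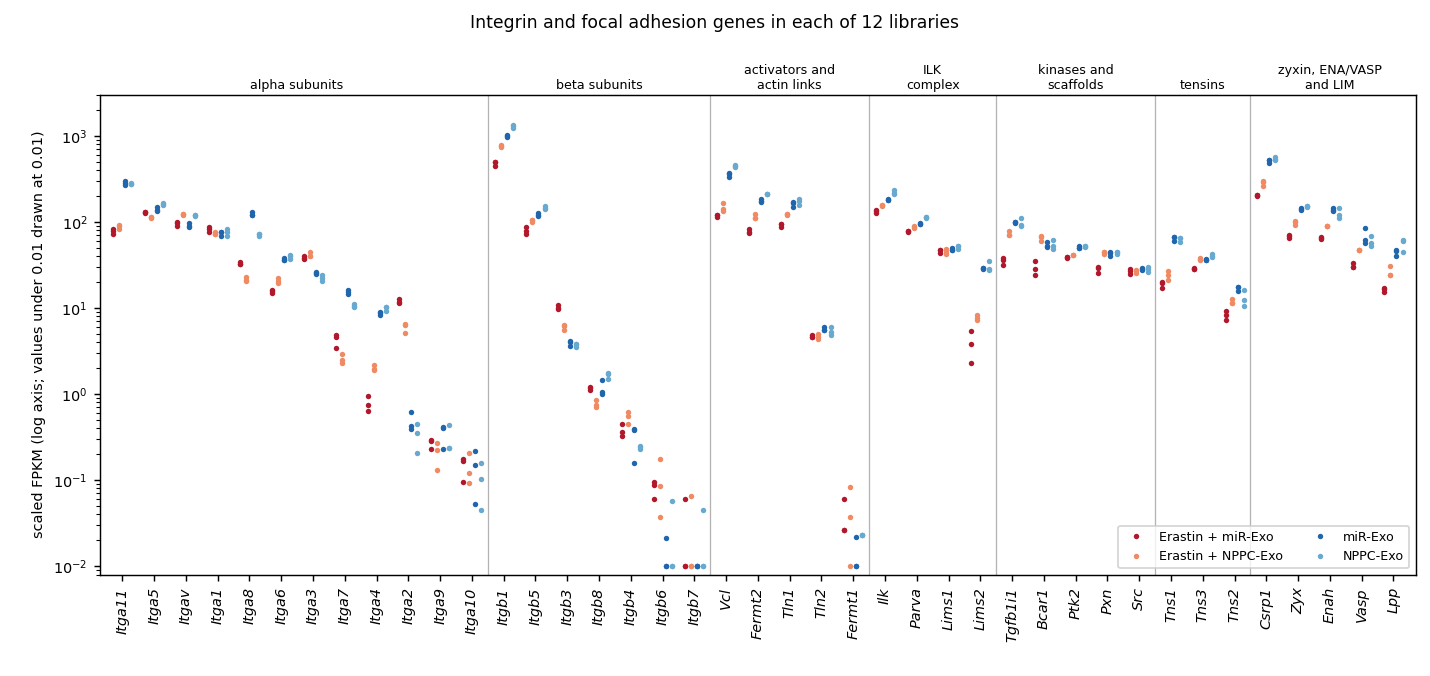
Scaled FPKM of the 41 genes (log axis, 1 point per library, values under 0.01 drawn at 0.01), ordered by role and coloured by group. Itgb1 and Csrp1 stand at the top in every group, and the erastin libraries sit lowest for most genes between Vcl and Lpp.

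Summed over the alpha subunits, the level was 487 ± 17.2 with erastin and miR-Exo, 489.5 ± 5.68 with erastin and NPPC-Exo, 796 ± 35.6 with miR-Exo alone and 788 ± 8.99 with NPPC-Exo alone scaled FPKM (SD, n = 3 in each group). On this scale both erastin groups had nearly the same total, under that of the groups without erastin. The alpha and beta totals rest on the TMM factors, which lay apart by group, and totals without them are not given here. Itga11 made up 15.9 ± 0.356% with erastin and miR-Exo, 17.9 ± 0.830% with erastin and NPPC-Exo, 35.4 ± 0.405% with miR-Exo alone and 35.4 ± 0.110% with NPPC-Exo alone of the alpha total. Its share was smaller with erastin in every library, and the fibronectin receptor subunit Itga5 took a larger one, 26.4 ± 0.496% with erastin and miR-Exo, 23.0 ± 0.164% with erastin and NPPC-Exo, 17.5 ± 0.241% with miR-Exo alone and 20.4 ± 0.911% with NPPC-Exo alone. Itga8 went the other way from Itgav between the exosome types, at 6.74 ± 0.144% with erastin and miR-Exo, 4.40 ± 0.226% with erastin and NPPC-Exo, 15.5 ± 0.335% with miR-Exo alone and 8.98 ± 0.158% with NPPC-Exo alone. Itgav made up 19.4 ± 0.487% with erastin and miR-Exo, 24.8 ± 0.717% with erastin and NPPC-Exo, 11.4 ± 0.198% with miR-Exo alone and 15.0 ± 0.340% with NPPC-Exo alone of the alpha total.

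The beta total differed between all groups, at 567 ± 18.7 with erastin and miR-Exo, 872 ± 18.0 with erastin and NPPC-Exo, 1111 ± 25.2 with miR-Exo alone and 1437 ± 37.2 with NPPC-Exo alone scaled FPKM. Itgb1 made up 84.0 ± 1.70% with erastin and miR-Exo, 87.3 ± 0.0649% with erastin and NPPC-Exo, 88.6 ± 0.628% with miR-Exo alone and 89.3 ± 0.660% with NPPC-Exo alone of it. Itgb3, the beta subunit of the vitronectin receptor, held a small share that was largest with erastin and miR-Exo, 1.80 ± 0.112% with erastin and miR-Exo, 0.692 ± 0.0577% with erastin and NPPC-Exo, 0.352 ± 0.0200% with miR-Exo alone and 0.258 ± 0.0146% with NPPC-Exo alone. These shares are descriptions of transcript levels per length and carry no test.

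**Figure D2:**
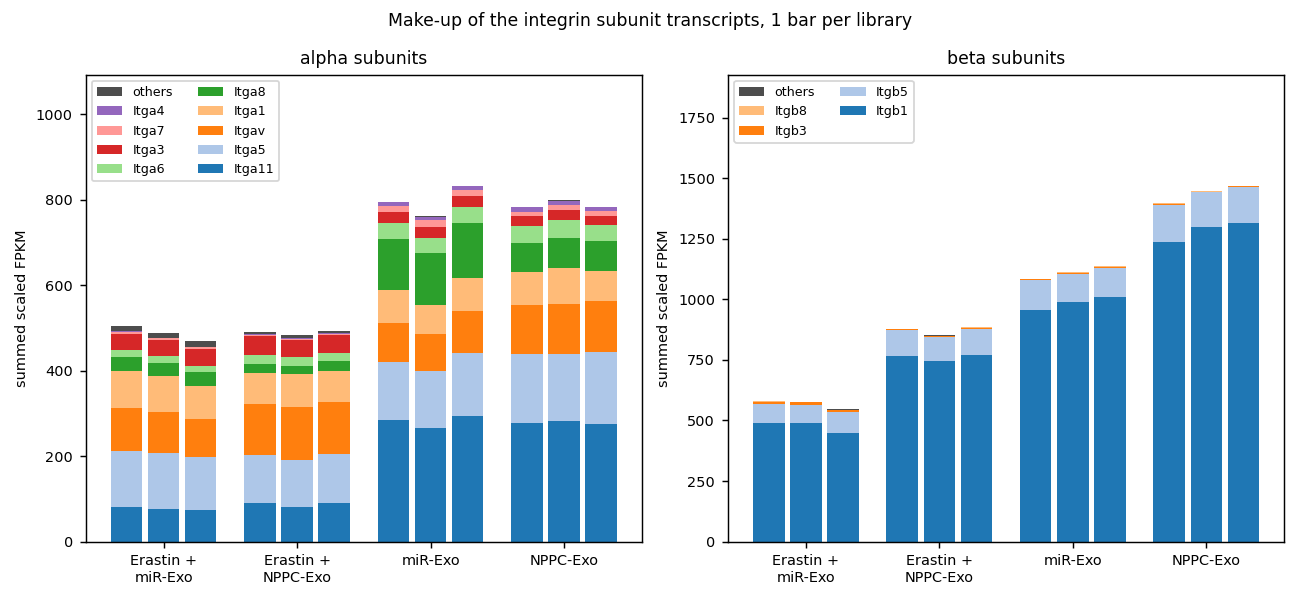
Summed scaled FPKM of the alpha (left) and beta (right) integrin subunits, 1 stacked bar per library, coloured by gene. The alpha bars of both erastin groups are of like height, while the beta bars differ between the groups and are almost wholly Itgb1 and Itgb5.

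Erastin was set against no erastin under each kind of exosome. With TMM scaling most of the adhesion genes were lower with erastin, and every layer held genes that fell, from the integrins themselves to the actin-binding proteins. Under miR-Exo 3 rose and 26 fell of 40 tested, where 49.1% of all genes tested passed, 24.7% rising and 24.4% falling (edgeR quasi-likelihood test, Benjamini-Hochberg adjusted p under 0.05). Under NPPC-Exo 4 rose and 24 fell, where 43.6% of all genes passed, 21.5% rising and 22.1% falling. Falls of at least 2-fold were made by 17 genes under miR-Exo, where 8.7% of all genes did so, and by 9 under NPPC-Exo, where 6.03% did. Rises of that size were made by 2 genes under miR-Exo and 2 under NPPC-Exo, beside 7.21% and 6.78% of all genes. The median log2 fold change was -0.61 under miR-Exo and -0.45 under NPPC-Exo, with 0.03 and 0.02 over all genes. Library values of the groups did not overlap for 32 genes under miR-Exo and 29 under NPPC-Exo, beside 58.3% and 53.4% of all genes. With library size alone 9 rose and 22 fell under miR-Exo, where 6963 rose and 2156 fell of all 15650 genes. Under NPPC-Exo 10 rose and 19 fell with library size alone, where 6403 rose and 1833 fell of all genes. Under NPPC-Exo that scaling left 3 kinases and scaffolds higher and 0 lower, and 1 tensin called each way. Under miR-Exo it left 5 alpha and 2 beta subunits called each way. The zyxin group kept 5 falls under miR-Exo and 4 under NPPC-Exo, with no rise. The 40 genes hold 21 that fell and 3 that rose under both exosome types, the risers being Itga2, Itga3 and Itgb3.

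**Figure D3:**
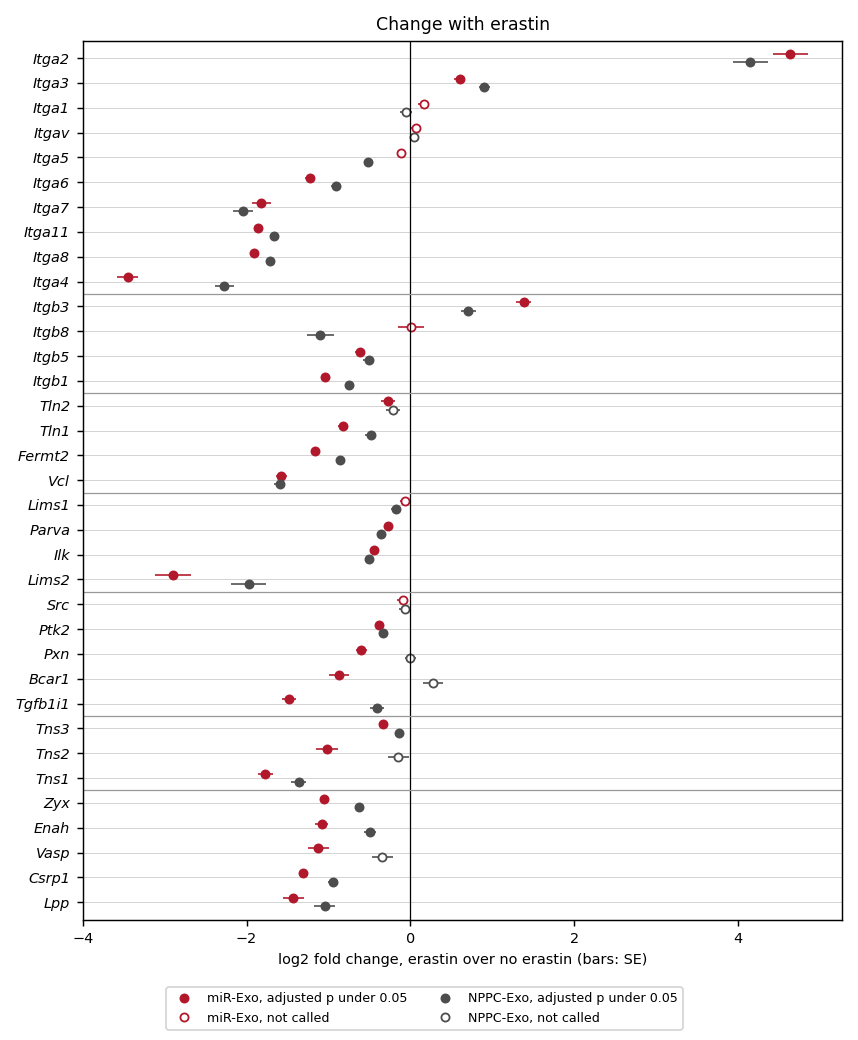
Log2 fold change with erastin (points, bars SE) for the 35 genes that reached 1 scaled FPKM in a library, under miR-Exo (red) and NPPC-Exo (grey), filled where the adjusted p was under 0.05. Itga2 stands alone on the right at 4.64 and 4.15, and Itga4 lies farthest to the left under both exosome types.

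The collagen-binding alpha subunits parted. Itga2, which pairs with Itgb1 as a collagen and laminin receptor, had 11.4, 11.8 and 12.7 scaled FPKM with erastin and miR-Exo, 5.06, 6.51 and 6.31 with erastin and NPPC-Exo, 0.392, 0.623 and 0.423 with miR-Exo alone and 0.353, 0.444 and 0.205 with NPPC-Exo alone. All 6 erastin libraries stood far above all 6 others, and the log2 fold change was 4.64 ± 0.21 under miR-Exo and 4.15 ± 0.22 under NPPC-Exo (adjusted p = 1.14e-09 and 4.78e-09). Itga11, the main fibrillar collagen receptor subunit of mesenchymal cells, had 82.0, 77.3 and 73.1 scaled FPKM with erastin and miR-Exo, 90.1, 81.9 and 91.1 with erastin and NPPC-Exo, 284, 266 and 295 with miR-Exo alone and 278, 283 and 276 with NPPC-Exo alone. Its erastin libraries lay far below the others without overlap, with log2 fold changes of -1.86 ± 0.06 under miR-Exo and -1.66 ± 0.06 under NPPC-Exo (adjusted p = 2.82e-11 and 9.08e-11). Although Itga2 rose the most, its level with erastin and miR-Exo remained below that of Itga11 in the same libraries. Itga1, which prefers collagen IV, ran from 67.9 to 86.8 scaled FPKM over all libraries and passed the test in no comparison with TMM scaling. It passed in 3 with library size alone: for erastin its log2 fold change was 0.47 under miR-Exo and 0.23 under NPPC-Exo, and for miR-Exo with erastin 0.28 (adjusted p = 5.76e-05, 0.0131 and 0.00675), against 0.16, -0.06 and 0.17 with TMM. Itga10, a chondrocyte collagen receptor subunit, stayed at or under 0.218 scaled FPKM and Itga9, which binds tenascin-C, at or under 0.433; neither passed the test in any comparison.

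The laminin-binding subunits did not move as a group. Itga3 averaged 38.4 ± 1.23 scaled FPKM with erastin and miR-Exo, 41.5 ± 2.28 with erastin and NPPC-Exo, 25.4 ± 0.386 with miR-Exo alone and 22.3 ± 2.04 with NPPC-Exo alone. It rose with erastin by 0.60 ± 0.07 under miR-Exo and 0.90 ± 0.07 under NPPC-Exo on the log2 scale (adjusted p = 5.68e-06 and 1.31e-07), with no overlap of libraries. Itga6, which forms laminin receptors with Itgb1 or Itgb4, averaged 15.5 ± 0.593 scaled FPKM with erastin and miR-Exo, 20.8 ± 1.55 with erastin and NPPC-Exo, 36.5 ± 0.967 with miR-Exo alone and 39.3 ± 2.09 with NPPC-Exo alone. It fell with erastin, with log2 fold changes of -1.22 ± 0.06 and -0.91 ± 0.06 under miR-Exo and NPPC-Exo (adjusted p = 3.79e-09 and 6.82e-08). Itga7, the laminin receptor subunit best known from muscle, had 4.59, 3.46 and 4.87 scaled FPKM with erastin and miR-Exo, 2.51, 2.94 and 2.27 with erastin and NPPC-Exo, 14.4, 16.1 and 15.3 with miR-Exo alone and 10.3, 10.7 and 11.2 with NPPC-Exo alone. Its erastin libraries were all below the others, and the log2 fold changes were -1.82 ± 0.12 under miR-Exo and -2.05 ± 0.12 under NPPC-Exo (adjusted p = 3.72e-08 and 1.64e-08).

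Of the RGD-binding subunits, Itga8 fell the most. This receptor subunit for nephronectin and fibronectin had 33.9, 32.2 and 32.3 scaled FPKM with erastin and miR-Exo, 21.0, 20.6 and 23.0 with erastin and NPPC-Exo, 121, 121 and 129 with miR-Exo alone and 69.1, 71.6 and 71.5 with NPPC-Exo alone. The 4 groups did not overlap, and the erastin libraries were the lowest. The log2 fold change with erastin was -1.91 ± 0.05 under miR-Exo and -1.71 ± 0.05 under NPPC-Exo (adjusted p = 6.41e-12 and 2.05e-11). Itgav, the alpha subunit shared by the vitronectin and TGF-beta-activating integrins, had 99.6, 95.8 and 88.6 scaled FPKM with erastin and miR-Exo, 118, 123 and 123 with erastin and NPPC-Exo, 90.2, 86.0 and 97.1 with miR-Exo alone and 116, 119 and 120.4 with NPPC-Exo alone. Its libraries with and without erastin overlapped under each exosome type, and neither log2 fold change, 0.06 ± 0.05 under miR-Exo and 0.05 ± 0.05 under NPPC-Exo, passed the test, with 95% intervals of -0.06 to 0.18 and -0.08 to 0.17. With library size alone the Itgav values were 0.37 and 0.33 and passed it (adjusted p = 2.84e-05 and 8.93e-05). The fibronectin receptor subunit Itga5 averaged 128 ± 2.87 scaled FPKM with erastin and miR-Exo, 112 ± 1.95 with erastin and NPPC-Exo, 139 ± 7.02 with miR-Exo alone and 161 ± 5.62 with NPPC-Exo alone. It fell under NPPC-Exo, at -0.51 ± 0.05 (log2 fold change, adjusted p = 7.49e-07), whereas the -0.11 ± 0.05 under miR-Exo missed the threshold (adjusted p = 0.0612) and turned to 0.20, which passed, with library size alone (adjusted p = 0.00135).

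Itga4, a receptor subunit for VCAM-1 and fibronectin, showed the deepest fall of the 40 adhesion genes tested under both exosome types. It had 0.944, 0.643 and 0.740 scaled FPKM with erastin and miR-Exo, 1.93, 1.97 and 2.20 with erastin and NPPC-Exo, 8.89, 8.65 and 8.19 with miR-Exo alone and 10.2, 10.3 and 9.16 with NPPC-Exo alone. Every erastin library lay well below the others, and those with miR-Exo lay below those with NPPC-Exo. The log2 fold change with erastin was -3.45 ± 0.13 under miR-Exo and -2.27 ± 0.12 under NPPC-Exo (adjusted p = 1.47e-10 and 4.68e-09).

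The beta subunits split between the abundant partners, which fell, and Itgb3, which rose. Itgb1 had 490.2, 491 and 447 scaled FPKM with erastin and miR-Exo, 767, 744 and 772 with erastin and NPPC-Exo, 954, 989.6 and 1009 with miR-Exo alone and 1236, 1298 and 1317 with NPPC-Exo alone. The 4 groups were fully separated, in the same order in which they are named here from lowest to highest. Erastin lowered Itgb1 by a log2 fold change of -1.04 ± 0.04 under miR-Exo and -0.75 ± 0.04 under NPPC-Exo (adjusted p = 3.27e-10 and 8.67e-09). Itgb5, the partner of Itgav in a vitronectin receptor, averaged 78.8 ± 7.09 scaled FPKM with erastin and miR-Exo, 103 ± 3.15 with erastin and NPPC-Exo, 121 ± 5.12 with miR-Exo alone and 147 ± 5.68 with NPPC-Exo alone. It fell as well, with log2 fold changes of -0.62 ± 0.06 and -0.51 ± 0.06 under miR-Exo and NPPC-Exo (adjusted p = 3.79e-06 and 2.27e-05). Itgb3, from a lower level, averaged 10.2 ± 0.655 scaled FPKM with erastin and miR-Exo, 6.03 ± 0.470 with erastin and NPPC-Exo, 3.91 ± 0.275 with miR-Exo alone and 3.70 ± 0.132 with NPPC-Exo alone. It rose by 1.39 ± 0.09 under miR-Exo and 0.71 ± 0.09 under NPPC-Exo on the log2 scale (adjusted p = 3.54e-08 and 2.54e-05).

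Itgb8, whose pair with Itgav activates latent TGF-beta, stayed between 0.702 and 1.74 scaled FPKM. It fell under NPPC-Exo (log2 fold change -1.10 ± 0.16, adjusted p = 9.78e-05), while the value under miR-Exo was 0.01 ± 0.16 (adjusted p = 0.980). Itgb4, the laminin receptor beta subunit of hemidesmosomes, averaged 0.542 ± 0.0906 with erastin and NPPC-Exo, against 0.239 ± 0.0113 scaled FPKM with NPPC-Exo alone. That rise under NPPC-Exo passed the test (log2 fold change 1.17 ± 0.29, adjusted p = 0.00476), and the 0.29 ± 0.28 under miR-Exo did not. Itgb6, an epithelial beta subunit, had 201 counts over the 12 libraries and passed the test in no comparison with TMM; with library size alone it passed for erastin under miR-Exo (adjusted p = 0.0419).

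Genes that switch integrins on and tie them to actin were lower with erastin: 4 of 5 under miR-Exo and 3 under NPPC-Exo, with none higher. Vinculin (Vcl), the link between talin and actin, had 119.6, 119 and 113 scaled FPKM with erastin and miR-Exo, 164, 135 and 140.4 with erastin and NPPC-Exo, 367, 330.0 and 357 with miR-Exo alone and 447, 452 and 434 with NPPC-Exo alone. The erastin libraries held less than those without erastin, with no overlap. The log2 fold changes were -1.58 ± 0.07 under miR-Exo and -1.60 ± 0.07 under NPPC-Exo (adjusted p = 7.54e-10 and 9.02e-10). Talin 1 (Tln1), which binds the beta tail, had 93.3, 87.0 and 94.1 scaled FPKM with erastin and miR-Exo, 123, 122 and 122 with erastin and NPPC-Exo, 171, 150.1 and 166 with miR-Exo alone and 185, 175 and 156 with NPPC-Exo alone. Its groups with and without erastin did not overlap, at log2 fold changes of -0.82 ± 0.07 and -0.49 ± 0.06 under miR-Exo and NPPC-Exo (adjusted p = 2.41e-07 and 3.64e-05). Kindlin-2 (Fermt2), the co-activator of talin, averaged 78.3 ± 3.95 scaled FPKM with erastin and miR-Exo, 115 ± 6.10 with erastin and NPPC-Exo, 176 ± 5.42 with miR-Exo alone and 210.4 ± 2.63 with NPPC-Exo alone. It fell too, with log2 fold changes of -1.16 ± 0.05 and -0.86 ± 0.05 (adjusted p = 7.75e-10 and 1.59e-08).

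Talin 2 (Tln2) was expressed at 4.37 to 6.03 scaled FPKM. Its fall under miR-Exo was small (log2 fold change -0.28 ± 0.08, adjusted p = 0.0140), turned to 0.03 with library size alone and lost its call without the library miR-Exo 1 (adjusted p = 0.0580). Under NPPC-Exo its -0.21 missed the threshold (adjusted p = 0.0534) and was 0.07 with library size alone. Kindlin-1 (Fermt1), an epithelial kindlin, had 112 counts in all and passed no test.

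Promoter windows of Vcl and Itgb1, genes that were lower with erastin and lower with miR-Exo, are printed to show where the TEAD motif GGAATG falls in them. The windows run from 250 bases before to 50 after the gene start in RefSeq's GRCr8, read along the gene's strand, with the motif in capitals.
Vcl, chr15:3404751-3405050, minus strand: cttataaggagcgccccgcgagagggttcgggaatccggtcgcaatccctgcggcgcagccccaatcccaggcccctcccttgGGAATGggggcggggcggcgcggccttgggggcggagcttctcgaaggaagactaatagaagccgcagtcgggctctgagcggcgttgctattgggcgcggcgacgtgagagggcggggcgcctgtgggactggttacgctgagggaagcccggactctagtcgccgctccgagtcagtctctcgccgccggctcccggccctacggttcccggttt
Itgb1, chr19:73602027-73602326, plus strand: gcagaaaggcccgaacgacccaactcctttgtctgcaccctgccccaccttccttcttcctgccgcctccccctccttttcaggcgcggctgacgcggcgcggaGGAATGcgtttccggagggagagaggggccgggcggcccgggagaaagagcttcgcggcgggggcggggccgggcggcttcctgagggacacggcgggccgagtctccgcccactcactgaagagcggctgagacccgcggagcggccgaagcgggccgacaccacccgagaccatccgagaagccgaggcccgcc
The motif starts 167 bases before the start of Vcl and 146 before that of Itgb1. Of the 41 genes 32 had a window in the table, 38 windows in all. GGAATG, searched on both strands, was in windows of 8 of these 32 genes (Itga10, Itga3, Itga4, Itgb1, Itgb8, Lims2, Vcl and Zyx). It was in 14.189% of all 33469 windows, a share of windows that is not on the scale of a count of genes. The AP-1 motif TGACTCA was in 0 of the 38 windows and in 4.631% of all windows. The CArG box of serum response factor was in a window of 1 gene, Itgb6, and in 1.637% of all windows. The Vcl window opens with what would be all but the first base of such a box. That base lies outside the window and was not searched. These matches describe letters in the windows and say nothing of binding.

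Within the ILK complex, which joins beta tails to actin through ILK, a PINCH protein and a parvin, the fall was small for the common parts and deep for PINCH-2. Of its genes, 3 of 4 fell under miR-Exo and 4 under NPPC-Exo. PINCH-2 (Lims2) had 3.80, 2.31 and 5.35 scaled FPKM with erastin and miR-Exo, 8.26, 7.56 and 7.27 with erastin and NPPC-Exo, 28.9, 28.9 and 28.6 with miR-Exo alone and 35.6, 27.7 and 28.0 with NPPC-Exo alone. Its erastin libraries stood far below the others. The log2 fold change was -2.90 ± 0.22 under miR-Exo and -1.98 ± 0.21 under NPPC-Exo (adjusted p = 1.53e-07 and 4.53e-06). PINCH-1 (Lims1), its close relative, ran from 41.8 to 52.9 scaled FPKM over all libraries. Its fall under NPPC-Exo (-0.18, adjusted p = 0.0464) turned to 0.11 with library size alone and was lost when any of 10 libraries was left out (adjusted p up to 0.264). Under miR-Exo its -0.07 did not pass, and was 0.24, which passed, with library size alone (adjusted p = 0.00619).

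Ilk itself, the pseudokinase at the centre, averaged 132 ± 5.42 scaled FPKM with erastin and miR-Exo, 155 ± 3.01 with erastin and NPPC-Exo, 181 ± 2.80 with miR-Exo alone and 221 ± 10.6 with NPPC-Exo alone. It fell by a log2 fold change of -0.45 ± 0.05 under miR-Exo and -0.50 ± 0.05 under NPPC-Exo (adjusted p = 4.64e-06 and 1.68e-06). Alpha-parvin (Parva) had 79.2, 78.9 and 75.4 scaled FPKM with erastin and miR-Exo, 85.8, 87.7 and 89.5 with erastin and NPPC-Exo, 93.4, 94.0 and 95.7 with miR-Exo alone and 111, 115 and 114 with NPPC-Exo alone. The erastin libraries were lower, without overlap, by log2 fold changes of -0.27 ± 0.04 and -0.36 ± 0.04 under miR-Exo and NPPC-Exo (adjusted p = 4.38e-05 and 3.14e-06), which became 0.03 and -0.08, neither called, with library size alone.

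Kinases and scaffolds differed between the exosome types: 4 of 5 fell under miR-Exo and 2 under NPPC-Exo. Focal adhesion kinase (Ptk2) had 38.2, 38.9 and 38.5 scaled FPKM with erastin and miR-Exo, 41.5, 41.0 and 41.1 with erastin and NPPC-Exo, 49.3, 49.7 and 52.1 with miR-Exo alone and 50.6, 52.8 and 53.0 with NPPC-Exo alone. Its erastin libraries were lower without overlap, at log2 fold changes of -0.38 ± 0.04 under miR-Exo and -0.33 ± 0.04 under NPPC-Exo (adjusted p = 6.15e-06 and 2.17e-05). With library size alone these were -0.07 and -0.05 and neither passed (adjusted p = 0.153 and 0.345). Src, the kinase that works with it, ran from 24.5 to 29.7 scaled FPKM and passed in no comparison with TMM. Its log2 fold change with erastin of -0.10 under miR-Exo and -0.07 under NPPC-Exo turned to 0.21 and 0.21 with library size alone, and both passed there (adjusted p = 0.0153 and 0.0165).

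Hic-5 (Tgfb1i1), a paxillin relative induced by TGF-beta, had 36.3, 31.8 and 37.8 scaled FPKM with erastin and miR-Exo, 70.7, 70.1 and 78.7 with erastin and NPPC-Exo, 101, 99.1 and 98.2 with miR-Exo alone and 111, 92.1 and 89.8 with NPPC-Exo alone. It was lowest with erastin and miR-Exo, where the log2 fold change with erastin was -1.49 ± 0.09 (adjusted p = 1.34e-08). Under NPPC-Exo the fall was -0.41 ± 0.09 (adjusted p = 0.00152), and -0.13 without a call with library size alone (adjusted p = 0.222). p130Cas (Bcar1), a scaffold stretched and phosphorylated at adhesions, had 28.0, 24.3 and 35.2 scaled FPKM with erastin and miR-Exo, 67.4, 59.7 and 67.9 with erastin and NPPC-Exo, 57.8, 50.8 and 52.0 with miR-Exo alone and 61.0, 51.9 and 48.7 with NPPC-Exo alone. The libraries with erastin and miR-Exo were the lowest, those with erastin and NPPC-Exo the highest but for an overlap with NPPC-Exo alone. Its log2 fold change was -0.87 ± 0.12 under miR-Exo (adjusted p = 5.90e-05) and 0.28 ± 0.12 under NPPC-Exo, which missed the threshold (adjusted p = 0.0859). With library size alone the value under NPPC-Exo passed, at 0.56, and it passed with DESeq2 as well (adjusted p = 0.0435). Paxillin (Pxn), the main adaptor of focal adhesions, had 29.8, 25.4 and 29.5 scaled FPKM with erastin and miR-Exo, 44.7, 41.8 and 44.5 with erastin and NPPC-Exo, 43.5, 40.6 and 44.9 with miR-Exo alone and 44.6, 44.1 and 42.8 with NPPC-Exo alone. The libraries with erastin and miR-Exo stood apart below the other groups. The log2 fold change was -0.60 ± 0.07 under miR-Exo (adjusted p = 5.73e-06), while the -0.00 ± 0.07 under NPPC-Exo did not pass and was 0.28, which passed, with library size alone (adjusted p = 0.00178).

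The tensins, which tie beta tails to actin at fibrillar adhesions, fell to different depths. Tns1 had 19.8, 17.1 and 19.7 scaled FPKM with erastin and miR-Exo, 26.9, 21.3 and 24.4 with erastin and NPPC-Exo, 67.3, 60.3 and 66.6 with miR-Exo alone and 64.4, 65.4 and 57.9 with NPPC-Exo alone. The erastin libraries were far below the others, by log2 fold changes of -1.77 ± 0.09 under miR-Exo and -1.36 ± 0.09 under NPPC-Exo (adjusted p = 3.78e-09 and 4.84e-08). Tns2 averaged 8.27 ± 0.966 scaled FPKM with erastin and miR-Exo, 11.8 ± 0.690 with erastin and NPPC-Exo, 16.8 ± 0.944 with miR-Exo alone and 13.2 ± 2.90 with NPPC-Exo alone. It fell under miR-Exo (log2 fold change -1.02 ± 0.13, adjusted p = 2.72e-05), and its -0.15 ± 0.13 under NPPC-Exo did not pass (adjusted p = 0.404) and was 0.14 with library size alone. Tns3 averaged 28.7 ± 0.364 scaled FPKM with erastin and miR-Exo, 37.1 ± 0.570 with erastin and NPPC-Exo, 36.4 ± 0.743 with miR-Exo alone and 40.8 ± 1.74 with NPPC-Exo alone. Its log2 fold change was -0.34 ± 0.04 under miR-Exo (adjusted p = 2.03e-05; -0.03 and not called with library size alone) and -0.13 ± 0.04 under NPPC-Exo (adjusted p = 0.0209). The value under NPPC-Exo turned to 0.15 with library size alone and was lost without any of 3 libraries (adjusted p up to 0.115).

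All 5 genes of the zyxin, ENA/VASP and LIM group fell under miR-Exo and 4 under NPPC-Exo. These proteins gather where adhesions pull on actin cables. Csrp1, a LIM protein of the actin cytoskeleton with a high level throughout, averaged 203 ± 3.28 scaled FPKM with erastin and miR-Exo, 279.6 ± 18.7 with erastin and NPPC-Exo, 508 ± 16.9 with miR-Exo alone and 543 ± 27.0 with NPPC-Exo alone. It fell by log2 fold changes of -1.31 ± 0.05 and -0.95 ± 0.05 under miR-Exo and NPPC-Exo (adjusted p = 4.63e-10 and 1.12e-08). Zyxin (Zyx), which repairs strained actin cables, averaged 67.6 ± 2.88 scaled FPKM with erastin and miR-Exo, 97.7 ± 4.23 with erastin and NPPC-Exo, 141 ± 3.70 with miR-Exo alone and 151 ± 2.01 with NPPC-Exo alone, with log2 fold changes of -1.06 ± 0.05 and -0.63 ± 0.05 (adjusted p = 1.60e-09 and 2.73e-07). Its relative Lpp had log2 fold changes of -1.43 ± 0.13 and -1.05 ± 0.13 (adjusted p = 8.87e-07 and 1.68e-05). Of the actin elongation factors, Mena (Enah) fell under both (log2 fold changes -1.08 ± 0.08 and -0.49 ± 0.08, adjusted p = 7.45e-08 and 1.34e-04). Vasp fell under miR-Exo at -1.12 ± 0.13 (adjusted p = 1.16e-05), and its -0.34 ± 0.13 under NPPC-Exo lay at the threshold (adjusted p = 0.0505; 0.0210 with DESeq2).

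miR-Exo were then set against NPPC-Exo. The exosome dose is stated for NPPC-Exo only, so the miR-221-3p cargo and other differences between the exosome preparations cannot be told apart. Without erastin the called changes of the adhesion genes were under 2-fold, though falls were called more often than over all genes. Of 40, 2 rose and 9 fell (5% and 22.5%), where 4.15% of all genes rose and 6.52% fell. Over all genes, 0.939% were called higher and 0.422% lower by at least 2-fold. With erastin 6 rose and 23 fell, against 15.6% and 15.8% of all genes, and 4 fell and 1 rose at least 2-fold, where 2.63% and 2.37% of all genes did. The median log2 fold change was -0.06 without erastin and -0.35 with it, with 0.00 and 0.01 over all genes. Library values did not overlap for 16 genes without erastin and 31 with it, beside 28.6% and 47.6% of all genes. With library size alone 4 rose and 6 fell without erastin, beside 1264 and 576 of all 15650 genes. With erastin 7 rose and 20 fell under that scaling, beside 3789 and 1737 of all genes. All groups had exosomes, so these are differences between exosome types.

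**Figure D4:**
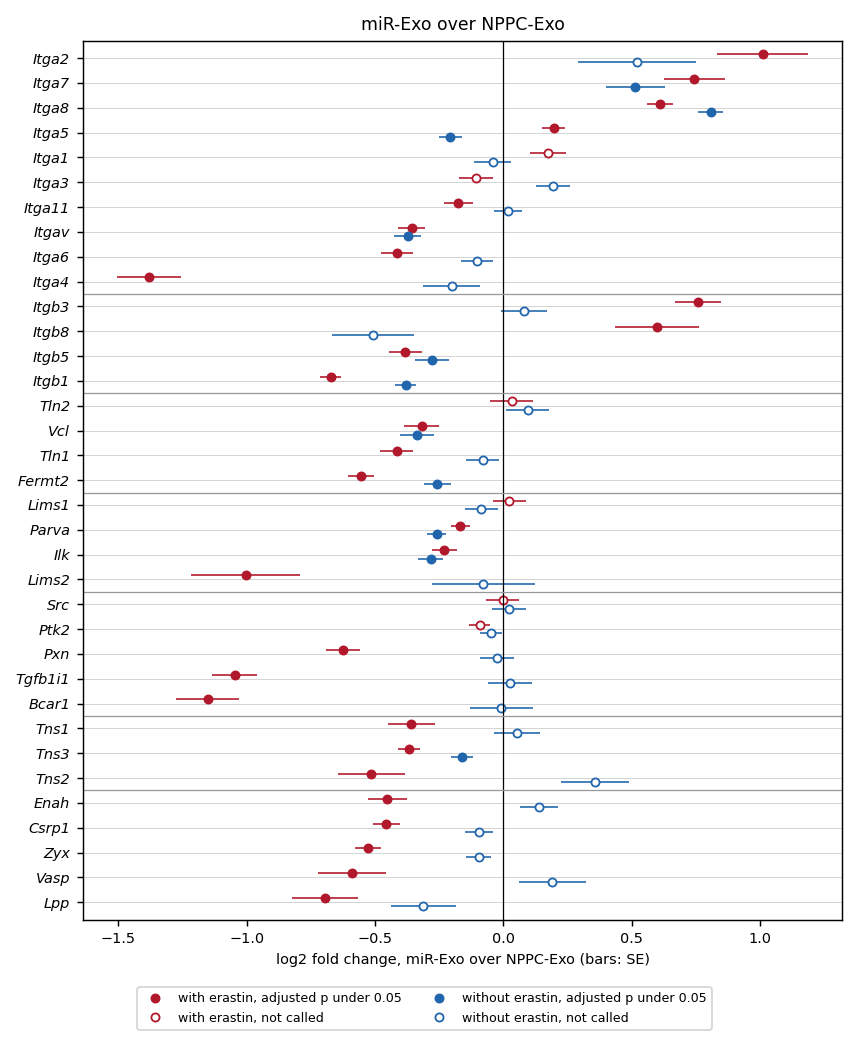
Log2 fold change of miR-Exo over NPPC-Exo (points, bars SE) for the same genes, with erastin (red) and without it (blue), filled where the adjusted p was under 0.05. Itga8 and Itga7 lie to the right in both, Itgb1 to the left in both, and the scaffolds Bcar1, Tgfb1i1 and Pxn to the left with erastin only among the filled points.

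In cells without erastin the differences with the smallest p were in integrin subunits. Itga8, whose library values stand above, was higher with miR-Exo by a log2 fold change of 0.81 ± 0.05 (adjusted p = 1.19e-06). Itgb1 was lower, at -0.38 ± 0.04 (adjusted p = 1.01e-04), and Itgav likewise, at -0.37 ± 0.05 (adjusted p = 7.14e-04). Parva completed the 4 genes with the smallest p, at -0.26 ± 0.04 (adjusted p = 7.41e-04). For all 4 the miR-Exo and NPPC-Exo libraries did not overlap. Itga7 also rose, by 0.51 ± 0.12 (adjusted p = 0.0132), and lost its call without the library miR-Exo 2 (adjusted p = 0.0533).

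The other genes that fell with miR-Exo in unstressed cells were Vcl (-0.34 ± 0.07, adjusted p = 0.00718), Ilk (-0.28 ± 0.05, adjusted p = 0.00253) and Fermt2 (-0.26 ± 0.05, adjusted p = 0.00622). Itgb5 (-0.28 ± 0.06) and Itga5 (-0.21 ± 0.05) passed as well (adjusted p = 0.0156 and 0.0110), but not with library size alone (0.0576 and 0.0729) nor without the library miR-Exo 2. Tns3 fell too, at -0.16 ± 0.04 (adjusted p = 0.0280). Its call was lost with library size alone (adjusted p = 0.241), when any of 4 libraries was left out (up to 0.128) and in a fit of only these groups, without a replicate block (0.0763) and with one (0.0881). In the blocked fit 2 genes rose and 8 fell. The kinases and scaffolds and the zyxin group held no gene that passed without erastin.

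With erastin the genes lower with miR-Exo included members of the zyxin group and of the kinases and scaffolds. All 5 genes of the zyxin, ENA/VASP and LIM group and all 3 tensins were lower with miR-Exo, as were 3 of 5 kinases and scaffolds and 3 of 5 activators and actin links. The smallest p belonged to Itgb1, at -0.67 ± 0.04 (adjusted p = 2.28e-07), then Itga8, which was higher at 0.61 ± 0.05 (adjusted p = 1.70e-06). Tgfb1i1 followed at -1.05 ± 0.09 (adjusted p = 2.22e-06) and Itga4 at -1.38 ± 0.12 (adjusted p = 4.44e-06). Bcar1 (-1.15 ± 0.12) and Lims2 (-1.004 ± 0.21) were the other genes lower by at least 2-fold. Zyx was lower at -0.53 ± 0.05, Fermt2 at -0.56 ± 0.05, Pxn at -0.62 ± 0.07 and Vcl at -0.32 ± 0.07 (adjusted p = 6.67e-06, 5.33e-06, 1.72e-05 and 0.00325).

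Integrin subunits moved in both directions under erastin. Besides Itga8, higher levels with miR-Exo were measured for Itga2 (1.01 ± 0.18, adjusted p = 8.24e-04), Itga7 (0.74 ± 0.12, adjusted p = 4.49e-04) and Itgb3 (0.76 ± 0.09, adjusted p = 3.82e-05). Itga5 and Itgb8 were higher too, at 0.20 ± 0.05 and 0.60 ± 0.16 (adjusted p = 0.00512 and 0.0137), Itgb8 losing its call when either of 2 libraries was left out. Lower were Itga6 (-0.42), Itgav (-0.36), Itgb5 (-0.38) and, with a call that 3 libraries and library size alone each end, Itga11 (-0.18). In the ILK complex, Ilk (-0.23) and Parva (-0.17) fell by little and lost their calls with library size alone (adjusted p = 0.0550 and 0.202).

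The interaction term asks whether erastin changed a gene differently under miR-Exo than under NPPC-Exo. In all, 3 genes had a higher and 14 a lower erastin response under miR-Exo, of 40 tested, where 5.81% and 7.01% of all genes did. Differences of at least 2-fold were 3 lower and 1 higher, beside 2.58% and 0.971% of all genes. The median difference of the log2 fold changes was -0.20, with 0.03 over all genes. Of the 14 lower, 10 had fallen under both exosome types, and 4 had fallen under miR-Exo with no call under NPPC-Exo (Pxn, Bcar1, Tns2 and Vasp). The smallest p was that of Tgfb1i1, with a difference of -1.07 ± 0.12 (adjusted p = 3.66e-04). Itga4 differed by -1.18 ± 0.17 (adjusted p = 0.00112), Bcar1 by -1.15 ± 0.17 (adjusted p = 0.00166) and Pxn by -0.60 ± 0.09 (adjusted p = 0.00185). Among the libraries, Bcar1 and Pxn were low in all 3 with erastin and miR-Exo and in no other.

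The zyxin group (4 of 5) and the kinases and scaffolds (3 of 5) held 7 of the 14 lower responses. Differences there were -0.43 ± 0.07 for Zyx, -0.59 ± 0.11 for Enah, -0.78 ± 0.19 for Vasp and -0.36 ± 0.08 for Csrp1 (adjusted p = 0.00248, 0.00433, 0.0173 and 0.00941). Itgb1 and Fermt2 also fell further under miR-Exo, with differences of -0.29 ± 0.06 and -0.30 ± 0.07 (adjusted p = 0.00756 and 0.0181). Vcl was not called, with a difference of 0.02 and a 95% interval of -0.20 to 0.24. No gene of the ILK complex passed; Ilk and Parva had intervals of -0.10 to 0.21 and -0.03 to 0.21. In the other direction, Itgb8 (1.11 ± 0.23, adjusted p = 0.00872) and Itga5 (0.40 ± 0.06, adjusted p = 0.00202) fell with erastin under NPPC-Exo, without a call under miR-Exo, and Itgb3 rose further under miR-Exo (0.68 ± 0.13, adjusted p = 0.00519). For Itga5 and Itgb8 the exosome types differed in opposite directions without and with erastin, though for Itgb8 the difference without erastin missed the threshold (adjusted p = 0.0641).

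**Figure D5:**
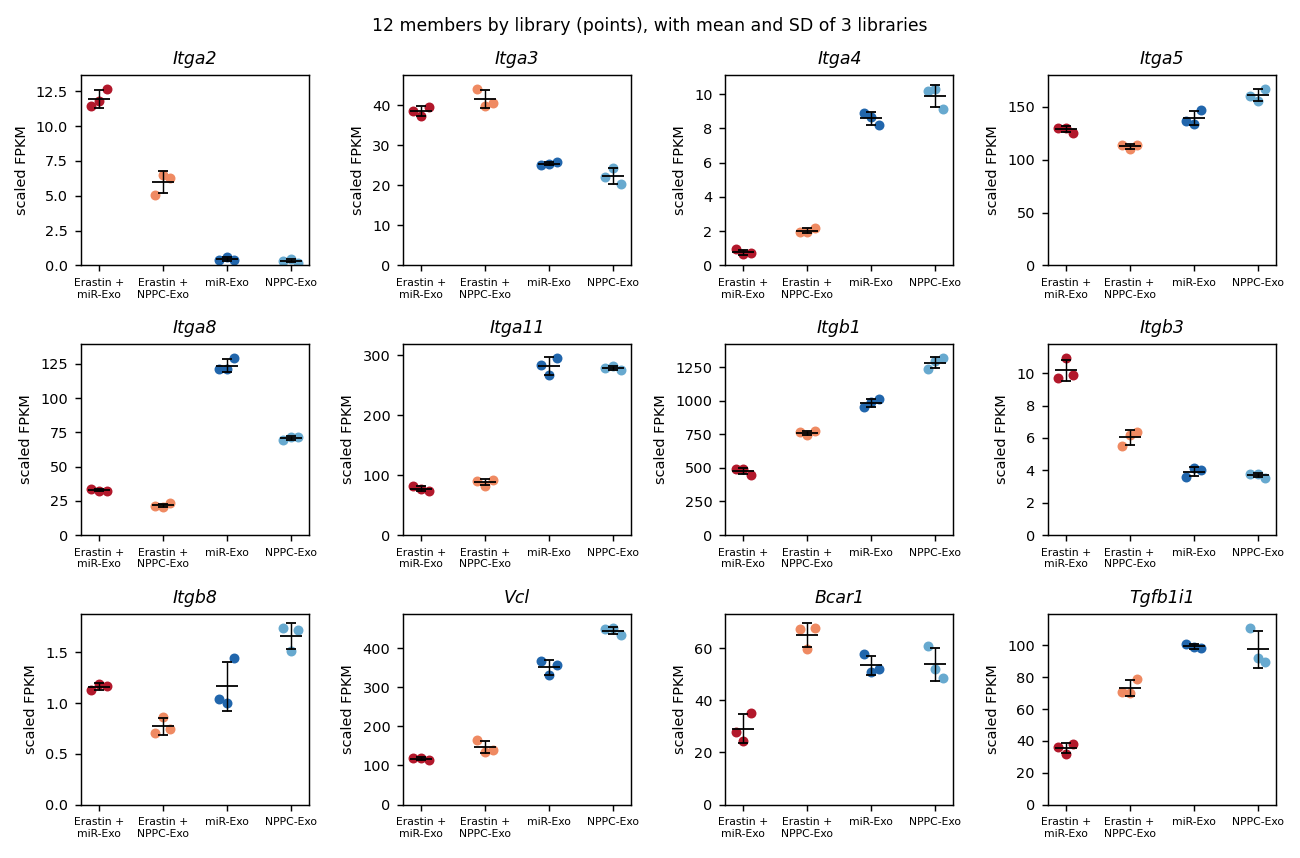
Scaled FPKM of 12 of the genes by library (points), with mean and SD of 3 libraries, from erastin with miR-Exo on the left to NPPC-Exo alone on the right; each axis starts at 0, and Itga3, Itga5, Itgb3 and Itgb8 were chosen after their values were seen. Bcar1 and Tgfb1i1 are lowest in the leftmost group, Itga2 and Itgb3 highest there, and Itgb1 steps up from left to right.

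Libraries within a group were not alike in every respect. The leading component of the spread within groups held 30.3% of it, and NPPC-Exo 1 and miR-Exo 1 lay farthest out. The signed weights of Lims2, Tns2, Vasp, Bcar1 and Tgfb1i1 on it were each higher than those of at least 89% of the genes compared. That ranking goes by sign, toward these 2 libraries, and does not compare the size of the spread. Without those 2 libraries, 3 genes rose and 26 fell with erastin under miR-Exo, 6 and 24 did under NPPC-Exo, and 3 and 12 passed in the interaction. For miR-Exo against NPPC-Exo they were 6 and 23 with erastin and 3 and 8 without. Leaving out single libraries, the genes with a lower response in the interaction numbered 11 to 18; Itga6, Tln1 and Tns3 each lost its call without any of 5 or 6 libraries.

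The proteins around this core were followed in wider lists, which show where the fall with erastin extended. For scale, 24.7% of all genes rose and 24.4% fell with erastin under miR-Exo, and 21.5% and 22.1% under NPPC-Exo. Most matrix ligands of integrins fell: 29 of 37 fell and 3 rose under miR-Exo, and 32 fell and 3 rose under NPPC-Exo, with median log2 fold changes of -1.20 and -0.81. Postn, the matrix protein periostin, averaged 156 ± 2.19 scaled FPKM with erastin and miR-Exo, 217 ± 10.7 with erastin and NPPC-Exo, 1038 ± 63.2 with miR-Exo alone and 1458 ± 79.1 with NPPC-Exo alone. Its log2 fold changes were -2.73 ± 0.05 and -2.74 ± 0.05 under miR-Exo and NPPC-Exo (adjusted p = 1.01e-12 and 1.50e-12). Fbln5, an RGD protein of elastic fibres, fell at -2.91 ± 0.06 and -2.65 ± 0.06 (adjusted p = 1.01e-12 and 2.49e-12). Ccn2, a matricellular protein abundant in nucleus pulposus, fell at -1.38 ± 0.04 under miR-Exo and Ccn3, a relative, at -3.17 ± 0.11 under NPPC-Exo (adjusted p = 1.60e-11 and 7.39e-11). For miR-Exo against NPPC-Exo 9 ligands rose and 21 fell with erastin, where 15.6% and 15.8% of all genes did. Without erastin 5 rose and 11 fell, beside 4.15% and 6.52% of all genes. Lamb3, an epithelial laminin chain, was lower with miR-Exo in erastin-treated cells, at -2.78 ± 0.17, Thbs1 likewise, at -0.999 ± 0.06 and Nid1, the nidogen that binds laminin, at -0.97 ± 0.06 (adjusted p = 2.04e-07, 1.41e-07 and 2.28e-07).

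Further adhesion proteins rose about as often as all genes did. Of 61 tested, 14 rose and 32 fell with erastin under miR-Exo, where 24.7% and 24.4% of all genes did. Under NPPC-Exo 14 rose and 21 fell, beside 21.5% and 22.1% of all genes. The median log2 fold changes were -0.27 under miR-Exo and -0.07 under NPPC-Exo. Their smallest p values belonged to actin-associated genes: Sorbs2 (of the vinexin family) at -2.69 ± 0.08 and -2.34 ± 0.08, Nexn (nexilin) at -2.52 ± 0.08 and -2.39 ± 0.08, and Fhl1 (a LIM protein) at -2.61 ± 0.09 and -2.38 ± 0.09 under miR-Exo and NPPC-Exo. All of these passed (adjusted p at or under 2.35e-10). For miR-Exo against NPPC-Exo 5 rose and 35 fell with erastin, where 15.6% and 15.8% of all genes did. Without erastin 1 rose and 14 fell, beside 4.15% and 6.52% of all genes. Actn1, the alpha-actinin that cross-links actin at adhesions, was lower with miR-Exo both with and without erastin, at -0.66 ± 0.05 and -0.41 ± 0.05 (adjusted p = 2.06e-06 and 4.58e-04). In the interaction 1 was higher and 16 were lower, beside 5.81% and 7.01% of all genes. The lower ones were led by Fhl2 at -0.87 ± 0.08 and Lasp1 at -0.57 ± 0.07 (adjusted p = 8.72e-05 and 4.53e-04).

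Leukocyte and platelet integrins with their counter-receptors gave 5 of 10 higher with erastin under miR-Exo and 5 under NPPC-Exo, and none lower. Over all genes 24.7% rose and 24.4% fell under miR-Exo, and 21.5% and 22.1% under NPPC-Exo. Vcam1, the ligand of the Itga4 pair, averaged 12.1 ± 0.388 scaled FPKM with erastin and miR-Exo, 8.46 ± 3.21 with erastin and NPPC-Exo, 0.126 ± 0.0134 with miR-Exo alone and 0.137 ± 0.0711 with NPPC-Exo alone. Its log2 fold changes were 6.50 ± 0.33 and 5.92 ± 0.33 (adjusted p = 3.06e-09 and 8.10e-09), opposite to those of Itga4. Icam1, a ligand of leukocyte integrins, averaged 90.4 ± 5.13 scaled FPKM with erastin and miR-Exo, 69.0 ± 11.2 with erastin and NPPC-Exo, 41.8 ± 2.21 with miR-Exo alone and 31.6 ± 1.02 with NPPC-Exo alone, and rose by 1.12 ± 0.09 and 1.13 ± 0.09 (adjusted p = 4.13e-07 and 4.36e-07). Of the leukocyte integrin subunits, Itgb2, the shared beta subunit, reached 0.140, Itgal 0.0762 and Itgam 0.108 scaled FPKM at most. Itgae reached 1.21, and Itgax ran from 0.274 to 2.41 over the libraries. Itgax rose with erastin, at 0.79 ± 0.21 under miR-Exo and 1.52 ± 0.22 under NPPC-Exo (adjusted p = 0.00654 and 8.33e-05). Of the other matrix receptors, 5 rose and 8 fell of 19 under miR-Exo, and 4 and 9 under NPPC-Exo; rises were near the 24.7% and 21.5% of all genes. Sdc2, a heparan sulfate syndecan that works beside integrins, averaged 36.2 ± 0.989 scaled FPKM with erastin and miR-Exo, 78.6 ± 3.25 with erastin and NPPC-Exo, 194 ± 3.02 with miR-Exo alone and 272 ± 12.7 with NPPC-Exo alone. It fell with erastin at -2.42 ± 0.05 and -1.78 ± 0.05, and with miR-Exo at -1.11 ± 0.05 with erastin and -0.48 ± 0.05 without (adjusted p = 1.03e-12, 1.62e-11, 1.64e-08 and 4.95e-05).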

How the data were processed

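Per the labels' protocols, TRIzol RNA of the cells gave 12 stranded (dUTP) libraries. The authors deposited raw counts per gene and, beside them, FPKM per library. StringTie and the mRatBN7.2 build appear in the submitters' processing notes. Which aligner and counter were used, and whether counting used strand, is not given in the sources used here. Coordinates in the table leave the build uncertain, so none is printed, and reads of a gene and an overlapping antisense gene may not be separated. Of the counts from 1 to 20, 57.3% were even, so halved counts were also tried.

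Library totals were 54616827 to 68865720 counts, and 3 counts correspond to 0.0440 to 0.0565 CPM, a limit that covers counting error only. Genes passing the filterByExpr function (15650 of 21071) were fitted with edgeR 4.0.16 in R 4.3.3. The fit used TMM scaling, quasi-likelihood F tests on the group means of all libraries and Benjamini-Hochberg adjustment over all genes tested, called under 0.05. Errors of log2 fold changes are standard errors, and the 95% intervals are built from them. Scaled FPKM is used for levels, given as mean ± SD over 3 libraries. The model was tested on simulated counts with known changes.

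The genes and lists were chosen with earlier results of these data known. By rule, values of every library are printed for the 8 largest called changes of each erastin comparison, the 4 smallest adjusted p of each miR-Exo comparison and of the interaction, and Itgb1, Itgav, Vcl, Tln1 and Ptk2. Up to 3 genes a list and comparison are named from the wider lists. Deviations of same-numbered libraries from their group means correlated at 0.396, 0.203 and 0.109 over 10162 genes for miR-Exo against NPPC-Exo without erastin, with numbers from the labels. The library miR-Exo 2 correlated most with NPPC-Exo 3. The main fit did not pair libraries, and the blocked value is given where it changes a call. Alternatives were other scaling and filters, DESeq2 1.42.0, limma 3.58.1 on log2(FPKM + 1) and log2(FPKM + 0.1), only the groups compared, a replicate block, halved counts and leaving out libraries. Sequences are from RefSeq tables of build GRCr8. Protein sequences and microRNA target sites were not analysed here.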

Additional observations from a re-analysis of the deposited data

Results flagged for a closer look

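The response to erastin differed between the exosome types for 17 of the genes, by the interaction term of the edgeR quasi-likelihood model (values are differences of log2 fold changes, miR-Exo minus NPPC-Exo). Higher under miR-Exo were Itgb8 (1.11), Itgb3 (0.68) and Itga5 (0.40). Among integrins and their activators the response was lower under miR-Exo for Itga4 (-1.18), Itga6 (-0.31), Itgb1 (-0.29), Tln1 (-0.33) and Fermt2 (-0.30). Among scaffolds and tensins it was lower for Bcar1 (-1.15), Tgfb1i1 (-1.07), Pxn (-0.60), Tns2 (-0.87) and Tns3 (-0.20). In the zyxin group it was lower for Vasp (-0.78), Enah (-0.59), Zyx (-0.43) and Csrp1 (-0.36). The libraries farthest out in the spread within groups, NPPC-Exo 1 and miR-Exo 1, both belong to the groups without erastin; without them Itga6 and Tns3 were no longer called (adjusted p = 0.0637 and 0.107), and the part of that spread in the other differences was not tested.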

How the results depend on the processing

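Values that leave out TMM scaling (library size alone, and limma on FPKM with pseudocounts of 1 and 0.1) moved the counts of the 41 genes that rose, by construction of the scaling. In that order of settings, 10, 10 and 11 rose with erastin under NPPC-Exo and 9, 8 and 9 under miR-Exo. Of all 15650 genes, 6403, 6485 and 6530 rose under NPPC-Exo and 6963, 7209 and 7156 under miR-Exo. For miR-Exo against NPPC-Exo without erastin 4 rose with library size alone and 4 with the smaller pseudocount, where 5 fell. Of all genes 1264 rose with library size alone, and 1116 rose and 526 fell with the smaller pseudocount. Log2 fold changes that reversed with these settings were, for erastin under NPPC-Exo, Itga1 (0.23, 0.22 and 0.22), Lims1 (0.11, 0.10 and 0.10), Pxn (0.28, 0.27 and 0.28), Src (0.21, 0.20 and 0.21) and Tns3 (0.15, 0.14 and 0.14). Under miR-Exo they were Itga5 (0.20, 0.19 and 0.19), Tln2 (0.029, 0.020 and 0.023), Parva (0.033, 0.026 and 0.026), Lims1 (0.24, 0.23 and 0.23) and Src (0.21, 0.19 and 0.20). No other value with a call in either setting changed direction, and 124 values without a call changed sign over 24 settings.

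Leaving out single libraries, the genes that rose and fell numbered 3 to 4 and 25 to 27 for erastin under miR-Exo, 4 to 6 and 22 to 25 under NPPC-Exo, 5 to 7 and 22 to 23 for miR-Exo with erastin, 1 to 4 and 6 to 10 without it, and 3 in each case and 11 to 18 for the interaction. The cause was not tested. Same-numbered libraries of the other comparisons did not all deviate together (correlations -0.00382, 0.0176 and -0.211 for erastin under miR-Exo, -0.157, -0.0144 and -0.0912 under NPPC-Exo and 0.0804, -0.0125 and 0.204 for miR-Exo with erastin). With a replicate block over all libraries Lims1 (erastin under NPPC-Exo, adjusted p = 0.0528) and Tns3 (interaction, 0.0588) lost their calls. Vasp (erastin under NPPC-Exo, 0.0371), Lims2 (interaction, 0.0479) and Tns1 (interaction, 0.0314) gained calls, and no other call of the 41 genes changed. The fit without the 2 outlying libraries and the blocked fit of the unstressed groups were chosen after the data were seen. Depth limits Itga9, Itga10, Itgb4, Itgb6, Itgb7 and Fermt1, all under 1 scaled FPKM, for which a missing call says little.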

Other observations

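Another list held actin-skeleton genes known as targets of the MRTF and SRF transcription factors, which respond to the pull of adhesions on actin. It also counts the factors Srf and Mrtfa themselves, whose means were lower with erastin under both exosome types. The listed genes were mostly lower with erastin, and in erastin-treated cells mostly lower with miR-Exo than with NPPC-Exo. Of 21 tested, 2 rose and 18 fell with erastin under miR-Exo, and 3 rose and 16 fell under NPPC-Exo, with median log2 fold changes of -1.46 and -0.98. Over all genes 24.7% rose and 24.4% fell under miR-Exo, and 21.5% and 22.1% under NPPC-Exo. Mylk, the kinase of the myosin light chain, averaged 6.92 ± 0.349 scaled FPKM with erastin and miR-Exo, 7.28 ± 0.584 with erastin and NPPC-Exo, 73.4 ± 0.944 with miR-Exo alone and 49.5 ± 3.77 with NPPC-Exo alone. Its log2 fold changes were -3.40 ± 0.07 and -2.76 ± 0.07 (adjusted p = 1.32e-12 and 1.02e-11). Acta2, smooth muscle actin, fell under miR-Exo at -2.22 ± 0.06 and Tpm1, a tropomyosin, at -1.89 ± 0.05 (adjusted p = 8.44e-12 and 4.75e-12). For miR-Exo against NPPC-Exo 1 rose and 18 fell with erastin, where 15.6% and 15.8% of all genes did. Without erastin 3 rose and 5 fell, beside 4.15% and 6.52% of all genes. In the interaction 1 was higher and 13 were lower, beside 5.81% and 7.01% of all genes. The summed level of smooth muscle and pericyte markers, given above, was lower with erastin too, and its part in the result was not tested.

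The YAP pathway also reads adhesion and tension. Its list mixes targets with regulators such as Yap1 and Tead2. Ccn1 and Ccn2, also known as YAP targets, were counted with the matrix ligands instead. Ccn2 averaged 930 scaled FPKM with erastin and miR-Exo, 1442 with erastin and NPPC-Exo, 2434 with miR-Exo alone and 2776.5 with NPPC-Exo alone. Ccn1 averaged 200, 313, 514 and 608 in the same order. The listed genes showed no common direction with erastin. Of 13 tested, 4 rose and 6 fell under miR-Exo, and 4 rose and 4 fell under NPPC-Exo. Of all genes 24.7% rose and 24.4% fell under miR-Exo, and 21.5% and 22.1% under NPPC-Exo. Tead2, a DNA-binding partner of YAP, rose at 1.05 ± 0.09 and 1.04 ± 0.09 (adjusted p = 6.29e-07 and 9.38e-07), and Yap1 itself fell under miR-Exo at -0.56 ± 0.05 (adjusted p = 1.66e-06). With erastin 8 were lower and 1 was higher with miR-Exo than with NPPC-Exo, beside 15.8% and 15.6% of all genes. Axl, a receptor kinase, was the first of these by p at -0.73 ± 0.04 (adjusted p = 2.12e-07).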
